A study of Mus musculus with 18 samples.

Results

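The comparison described here sets mouse immune cells 4 h after treatment with a cell wall extract against cells labelled as the time zero control. The samples were chosen by the time in their own label, which gives 6 arrays at 4 h and 6 arrays at 0 h, or 12 of the 18 arrays of the series. The other 6 arrays were taken 1 h after treatment and entered only alternative fits. The design text of the series calls the mice knockouts, and its title points to TLR2, a surface receptor for bacterial lipoproteins, and to IL-10, a cytokine that restrains inflammation. No label gives a genotype, strain, cell type, age or dose, the source of the extract, or whether the extract was given to animals or to cultured cells. Any effect of genotype therefore cannot be told apart from the spread within a time. Each title carries an array code. The codes form 3 ranges, 12 to 22, 32 to 37 and 44 to 54, and every range holds 2 arrays of either time. What the ranges stand for is not stated, and a genotype that followed them could not be told apart from them. They were a block in the main fit, and some alternative fits left the block out or replaced it. Separate animals or cultures are named nowhere in the labels, so the p-values reflect sample-to-sample spread that may be technical, and the number of arrays limits the precision.

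As background, macrophages and related cells that sense microbial wall material through Toll-like receptors activate NF-kB, MAP kinases and, later, interferon pathways. Besides releasing cytokines they are known to take up more glucose, divert a citrate cycle intermediate to itaconate, make prostaglandins, sequester iron and exchange one set of surface receptors for another. Part of their resting programme, including G protein coupled receptors and growth-related genes, is lost in the same hours.

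The microarrays were Affymetrix 3' expression arrays, on which a probe set reports 1 transcript, or for some probe sets several, as a signal. The signals are in linear units, scaled by the authors to a common trimmed mean on each array. Changes are differences of log2(signal + 16), 4 h minus 0 h, so 1 unit is a doubling and the changes of dim transcripts are understated. A probe set rose or fell where limma's adjusted p, by Benjamini-Hochberg over all 45037 probe sets, was under 0.05. Arrays of one time correlated at 0.932 to 0.959 on the log2 scale, and no pair was identical. Between the times, deviations from the time means correlated with a median of 0.160 for arrays of the same code range and -0.07 for arrays of different ranges.

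Of the 45037 probe sets, 9037 (20.1%) passed the threshold, with 2641 rises (5.86%) and 6396 falls (14.2%). The balance of rises and falls depended on the scaling. The median signal of an array lay between 74.7 and 87.5 at 4 h and between 89.8 and 105 at 0 h, and the median change of all probe sets was -0.17. With each array centred on its median the median change was 0.09, with 4585 rises and 2922 falls, so falls made up 38.9% of the calls instead of 70.8%. With quantile normalization it was -0.03, with 3341 rises and 4064 falls, 54.9% of the calls. Under all 3 scalings 5327 probe sets (11.8%) kept their call, of which 2485 rose (5.52%) and 2842 fell (6.31%). At least 2-fold changes past the threshold numbered 3664 probe sets (8.14%), 1298 rises (2.88%) and 2366 falls (5.25%). The plot of all changes shows the distribution at a different position under each of the 3 scalings. Median centring moves every gene by the same amount, and quantile normalization does not. Under quantile normalization Idh1, for example, moved from -1.16 to -1.29, while the median of all probe sets moved up. Weak falls are therefore given below with the count that held under all 3 scalings. In bulk RNA, fewer cells of a type and less RNA per cell cannot be told apart.

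**Figure D1:**
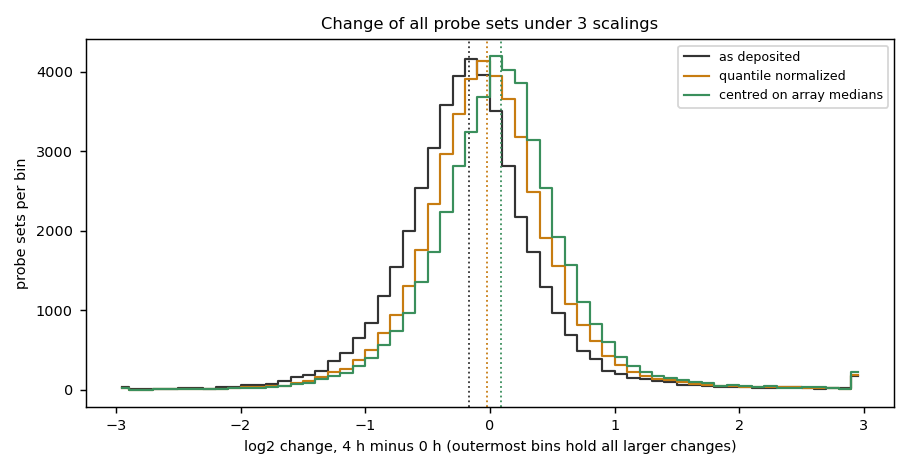
Number of probe sets per bin of log2 change, 4 h minus 0 h, under the deposited scaling (black), quantile normalization (orange) and centring of each array on its median (green), with dotted lines at the medians. The 3 curves have medians of -0.17, -0.03 and 0.09.

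Counted by gene, with the brightest probe set standing for each, 18193 genes were measured and their median change was -0.15. Among them 4202 (23.1%) were called, 1335 rises (7.34%) and 2867 falls (15.8%). Under all 3 scalings 1232 rose (6.77%) and 1346 fell (7.4%). Signals at 4 h lay wholly above or below those at 0 h for 2316 genes (12.7%), 807 above (4.44%) and 1509 below (8.29%). Rises were fewer than falls but larger: 240 genes rose and 96 fell at least 4-fold, and all 336 of these kept their call under the 3 scalings. The change had the same sign in each of the 3 code ranges for 1317 of the 1335 rises and 2855 of the 2867 falls.

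Markers of several cell types were checked, since the labels say no more than immune cells. Of 14 macrophage markers, 13 were measured and all 13 lay above the median of their array on at least 4 of the 12 arrays. Their summed signal was 196902 to 245415 at 4 h and 196580 to 221943 at 0 h. Within that list 3 rose and 2 fell, each under all 3 scalings. Msr1, a scavenger receptor, rose by 1.82 ± 0.23 (SE, here and below) with adjusted p = 0.00032. Mertk, a receptor for apoptotic cells, fell by 2.70 ± 0.30 with adjusted p = 0.000154. Spi1 and Cd14 also rose and Cd163 also fell. With a code range left out, Cd14 (adjusted p up to 0.181) and Cd163 (up to 0.064) missed the threshold at least once. Of the measured markers of other cells, 4 of 10 T cell, 2 of 7 B cell, 1 of 7 NK cell, 3 of 9 dendritic cell, 1 of 8 mast cell and basophil and 0 of 5 erythroid markers lay above the array medians. The summed T cell signal was 2990 to 11506 at 4 h and 5127 to 6923 at 0 h, and that of B cells 247 to 445 at 4 h and 422 to 674 at 0 h. One marker of each list fell, under all 3 scalings and with overlapping groups. Cd28, a costimulatory receptor of T cells, had 254, 322 and 759 at 4 h and 661, 1144 and 2581 at 0 h (-1.56 ± 0.19, adjusted p = 0.000252), and Cd79b, a subunit of the B cell receptor, changed by -1.44 ± 0.19 (adjusted p = 0.00043). Signals of different probe sets cannot be compared, so these sums give no shares of cell types.

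Neutrophil and stromal markers were present at levels that varied from array to array. Of the 10 measured neutrophil markers 7 lay above the array medians, and their summed signal was 1882 to 6657 at 4 h and 1386 to 4632 at 0 h. Of these 10, 3 rose and 1 fell. The fall was that of Mmp8, a call lost when any 1 of 9 arrays was left out (adjusted p up to 0.0826). Csf3r, the receptor for granulocyte colony-stimulating factor, rose by 1.40 ± 0.23 (adjusted p = 0.00177). S100a8, a calprotectin subunit, rose by 1.17 ± 0.29 (adjusted p = 0.0154), but with overlapping groups and not without the range 44 to 54 (0.73, adjusted p = 0.172), the range 32 to 37 (1.25, adjusted p = 0.0664) or the block (adjusted p = 0.291). S100a9, the other subunit, missed the threshold when any 1 of 9 of the 12 arrays was left out, with adjusted p up to 0.109. Of 8 stromal markers 6 lay above the array medians, with a summed signal of 1179 to 11213 at 4 h and 946 to 14157 at 0 h. Among them only Col1a2, a collagen chain, passed the threshold, with a change of -0.51, which was lost when any 1 of 7 arrays was left out and under median centring. The part of these other cells in the results below was not tested.

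The largest rises outside the cytokines and chemokines were led by a mitochondrial enzyme. Acod1, which makes itaconate from a citrate cycle intermediate, had a lowest, median and highest signal of 22781, 25724 and 35941 at 4 h, against 71.3, 128 and 411 at 0 h, a 157-fold change (7.30 ± 0.31 on the log2 scale, adjusted p = 4.04e-07). Saa3, an acute phase protein, had 17689, 28447 and 38854 at 4 h and 225, 262 and 586 at 0 h (6.46 ± 0.19, adjusted p = 4.0e-08). Ptgs2, the inducible cyclooxygenase, had 14342, 23304 and 34086 at 4 h and 164, 461 and 1549 at 0 h (5.57 ± 0.39, adjusted p = 8.25e-06). For these 3 genes every array at 4 h lay far above every array at 0 h. Hcar2, a receptor for the ketone body beta-hydroxybutyrate, rose by 5.65 ± 0.33 (adjusted p = 2.54e-06) and Fpr2, a formyl peptide receptor, by 5.07 ± 0.23 (adjusted p = 7.37e-07). Cd69, an activation marker of leukocytes, had 467, 4837 and 8743 at 4 h and 38, 82.9 and 99 at 0 h (4.94 ± 0.44). Its change differed in size between ranges, from 3.10 in one to 6.31 in another. Gm6377 rose by 4.89 ± 0.22. Negative regulators stood in the same group, with Socs3, which blocks JAK kinases, at 4.86 ± 0.23, Tnfaip3, the ubiquitin-editing enzyme A20, at 4.67 ± 0.24, and Zc3h12c, of the Regnase family of RNA-binding proteins, at 4.47 ± 0.24.

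The remaining members of the 15 largest rises were Ccrl2 (4.68 ± 0.32), an atypical receptor that binds chemerin, Lcn2 (4.66 ± 0.44), a binder of bacterial siderophores, Cdc42ep2 (4.63 ± 0.45), an effector of the GTPase Cdc42, Gpr84 (4.61 ± 0.29), a receptor for medium-chain fatty acids, and Mir155hg (4.56 ± 0.36). All 15 kept their call in each alternative fit other than those of a single code range, and in none did the groups overlap. They were picked for large changes in these same arrays, so this is no independent check. Mir155hg is the host transcript from which the microRNA miR-155 is cut. Its signal was 202, 713 and 1203 at 4 h and 1.22, 11.9 and 44.1 at 0 h. The arrays measured the host transcript, not the mature microRNA. The mature 5p strand lies at chr16:84714143-84714165 on the plus strand of GRCm38.p6 and is shown, from RefSeq, because its seed (bases 2 to 8, in capitals) is what pairs with target messages.
mmu-miR-155-5p: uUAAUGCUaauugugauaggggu

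**Figure D2:**
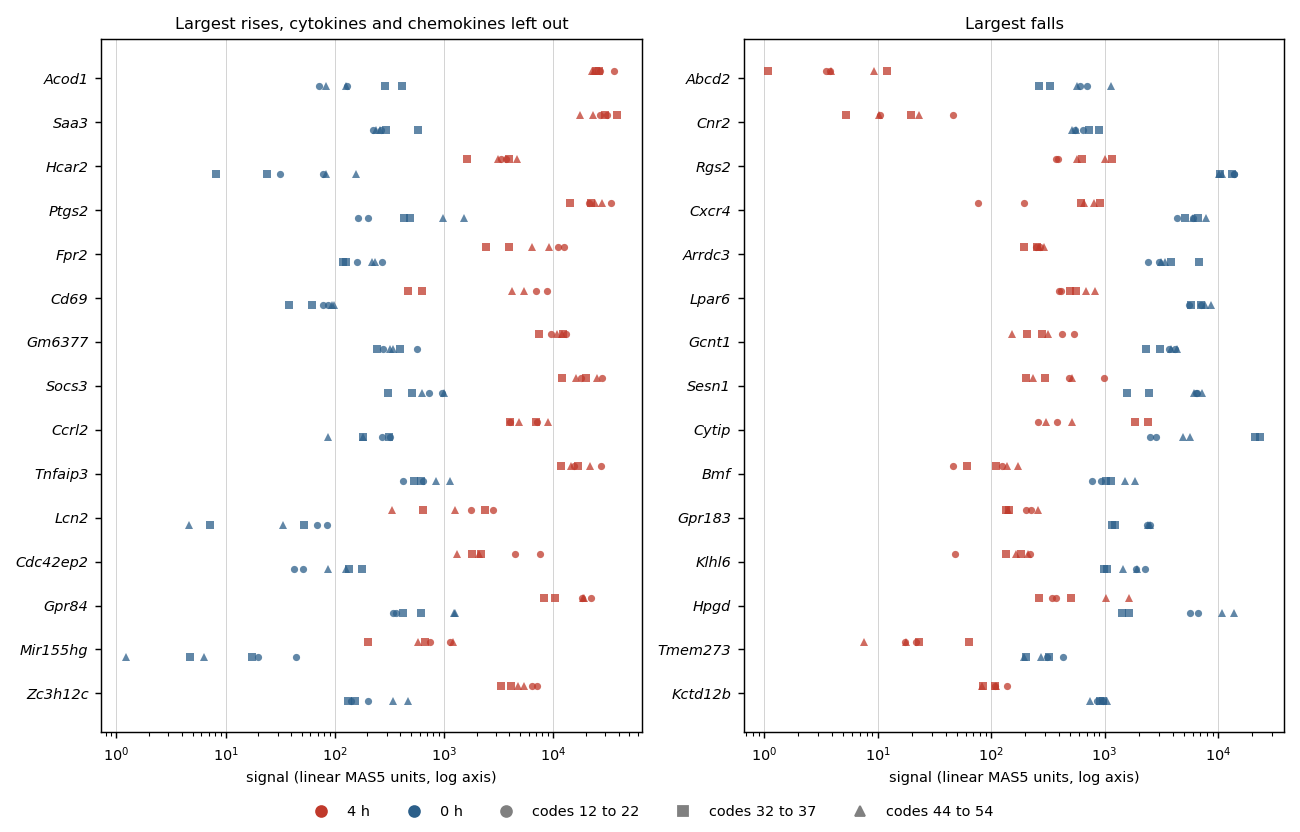
Signal on a log axis (linear MAS5 units) of the 15 largest rises outside the cytokines (left) and the 15 largest falls (right), with 1 point per array, 4 h in red and 0 h in blue, and the point shape giving the code range. In 29 of the 30 genes the 6 red points and the 6 blue points do not overlap, and in Hpgd they do. The genes were chosen for large changes between these same arrays, and 12.7% of all genes did not overlap.

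Short stretches before the start site are shown for the 3 largest named rises that hold an NF-kB site and the largest that holds an interferon response element in the 250 bases before their RefSeq start site. The NF-kB letters searched were GGG and TTTCC with 2 free bases between them, and those of the interferon response element GAAA and GAAA with 2 free bases between them, on both strands, and the matches are in capitals. Cxcl3 and Cxcl1 are neutrophil-attracting chemokines, which rose by 7.63 ± 0.22 and 6.78 ± 0.19. Sequences are from RefSeq (GRCm38.p6), on the strand of the gene. They lie at chr5:90785988-90786077 (plus strand, Cxcl3), chr5:90891134-90891223 (plus strand, Cxcl1, with 2 matches), chr10:19015411-19015462 (minus strand, Tnfaip3) and chr7:46715752-46715841 (minus strand, Saa3). The match nearest the gene ends 64 bases before the start site in Cxcl3, 62 in Cxcl1, 3 in Tnfaip3 and 116 in Saa3.
Cxcl3: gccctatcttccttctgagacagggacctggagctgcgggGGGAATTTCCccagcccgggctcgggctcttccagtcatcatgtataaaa
Cxcl1: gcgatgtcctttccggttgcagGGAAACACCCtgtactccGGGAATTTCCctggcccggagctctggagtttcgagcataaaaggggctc
Tnfaip3: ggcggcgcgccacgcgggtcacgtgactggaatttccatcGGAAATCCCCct
Saa3: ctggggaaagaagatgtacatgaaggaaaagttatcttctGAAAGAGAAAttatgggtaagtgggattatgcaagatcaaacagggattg

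The NF-kB letters were present before 13 of the 186 genes with a RefSeq window that rose at least 4-fold (6.99%), before 2 of the 78 that fell at least 4-fold (2.56%), and before 1.69% of all 14452 measured genes with a window. A gene can have several start sites, and 1.41% of all 32851 mouse windows held the letters. The interferon response element was present in 6.45% of the risers, 3.85% of the fallers and 3.13% of all measured genes (2.98% of all windows). An AP-1 site (TGANTCA) was present in 12.9%, 6.41% and 6.7% of these groups (6.75% of all windows). A cyclic AMP response element (TGACGTCA) was present in 1.61%, 0 of 78 and 2.5% (1.55% of all windows), and a forkhead site (GTAAACA) in 3.76%, 3.85% and 3.04% (3.17% of all windows). These shares describe letters in a window and do not show binding.

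The shares of each gene list that rose and fell are plotted beside those of all genes. Sets with a share of rises far above the 7.34% of all genes were found among metal handling, redox, amino acid and AP-1 genes. Sets with a share of falls far above 15.8% were found among fatty acid oxidation, DNA repair and G protein signalling genes. These shares of all genes include dim ones. Of the 24428 probe sets above the array median on at least 4 arrays, 3184 rose and 7588 fell. Over all 45037 the counts were 2641 and 6396, so both shares are larger among bright probe sets. For a list of mostly bright genes the shares of all genes are therefore a low standard. Whether brightness accounts for moderate excesses of rises or falls in a list was not tested. The lists were chosen with earlier results of these data known. For each list the text names up to 4 called members with the largest change. Any further member was named after its value was seen and is given without SE. Each of these further members but Nos2 kept its call when any single array was left out. With a whole code range left out, Nos2, Slc2a3, Ehhadh, Tbxas1, Rab32, Ptger4, P2ry1, Nrp1, Tal1, Lmo2, Cebpa, Foxo4, Cdkn1b, Cdkn2c, Ercc5 and Casp9 missed the threshold at least once. List counts also dropped then: the lowest were 8 rises for metal handling, 7 for redox, 8 for amino acids and 8 for AP-1 genes, and 10 falls for G protein signalling and 16 for DNA repair. Median centring moves the change of every gene by the same amount, so it cannot set one list apart from another. List medians of -0.25 or nearer to 0 on the negative side turned positive under it. Those of fatty acid oxidation (-0.34 when centred), cell cycle (-0.30), DNA repair (-0.42) and Zfp genes (-0.16) stayed negative. So did, among others, those of nuclear receptors (-0.28), eicosanoid synthesis (-0.22) and G protein signalling (-0.14).

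**Figure D3:**
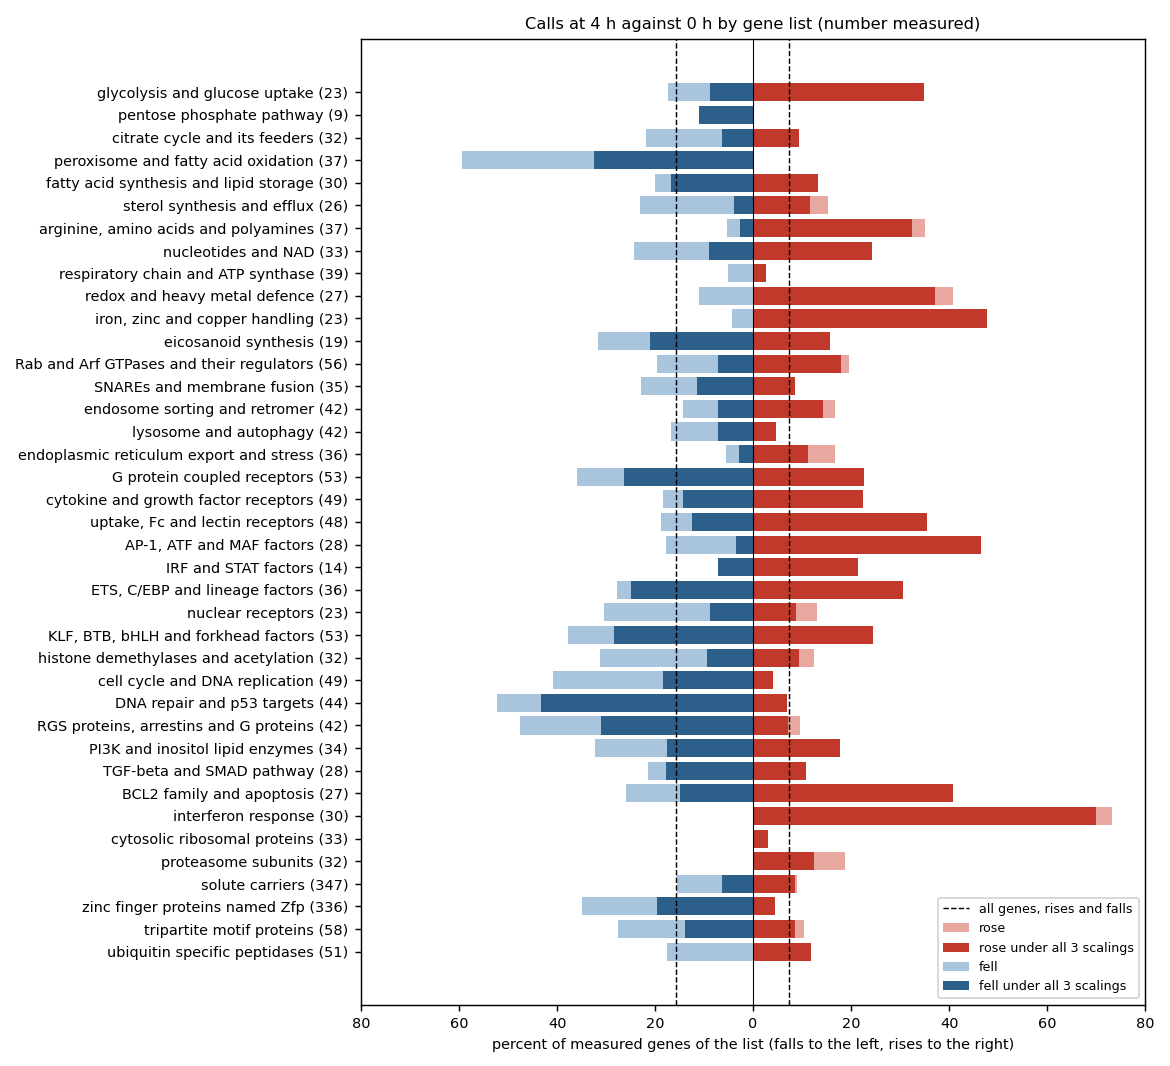
Percent of the measured genes of each list that fell (blue, to the left) or rose (red, to the right) at 4 h against 0 h, with the number measured in brackets. Dark bars are calls held under all 3 scalings, and dashed lines mark all genes, dim ones included (15.8% falls and 7.34% rises).

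Several genes of glucose uptake and of the control points of glycolysis rose. Of 23 measured genes of glycolysis and glucose uptake 8 rose (34.8%) and 4 fell (17.4%), against 7.34% and 15.8% of all genes. Under all 3 scalings 8 and 2 held. The median change was 0.28, against -0.15 for all genes. Slc2a1, the main basal glucose transporter, had a signal of 7286, 12460.0 and 17514 at 4 h and 1749, 2073 and 3562 at 0 h (lowest, median and highest, here and below), a change of 2.47 ± 0.16 (adjusted p = 4.61e-06) that lay between 2.41 and 2.55 in each range. Slc2a6, a lysosomal member of the same family, had 2108, 2766 and 4535 at 4 h and 381, 419 and 899.7 at 0 h (2.49 ± 0.24, adjusted p = 5.56e-05). Pfkfb3, a kinase that makes an activator of phosphofructokinase, had 414, 1382 and 4049 at 4 h and 129, 269 and 430.4 at 0 h (2.47 ± 0.35, adjusted p = 0.000663). The 2 transporters separated the times on every array, while the ranges of Pfkfb3 overlapped slightly. Its sister enzyme Pfkfb4 had 327, 419 and 475 at 4 h and 1049, 1363 and 1542 at 0 h, a fall of 1.64 ± 0.12 (adjusted p = 1.12e-05). The 2 kinases of the same step thus moved in opposite directions. Slc2a3, a further glucose transporter, fell by 1.07, and the phosphofructokinase subunit Pfkl rose by 1.25. Of 9 pentose phosphate genes 0 rose and 1 fell, Prps2, which makes phosphoribosyl pyrophosphate, by 0.99 ± 0.12 (adjusted p = 0.000276).

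Enzymes of the citrate cycle and its feeders other than Acod1 mostly showed small changes. Of 32 measured, 3 rose (9.38%) and 7 fell (21.9%), against 7.34% and 15.8% of all genes. The falls numbered 13 under quantile normalization and 2 under all 3 scalings, and the median was -0.21. Idh1, the cytosolic isocitrate dehydrogenase, had 3055, 4066 and 5111 at 4 h and 5922, 8769 and 13060.3 at 0 h, without overlap (a fall of 1.16 ± 0.18, adjusted p = 0.00112). Got1, the cytosolic aspartate aminotransferase, fell by 0.94 ± 0.18 (adjusted p = 0.004), which missed the threshold without the code range block (adjusted p = 0.126). Mdh1, the cytosolic malate dehydrogenase, fell by 0.67 ± 0.14, a call lost under median centring and without the range 12 to 22 or 44 to 54. Of 39 subunits of the respiratory chain and ATP synthase 36 passed no threshold. Past it 1 rose (2.56%) and 2 fell (5.13%), shares below those of all genes. The median was -0.19, but quantile normalization called 10 falls. Cycs, cytochrome c, had 16154, 21074 and 22894 at 4 h and 11262, 13866 and 15816 at 0 h (0.54 ± 0.13, adjusted p = 0.0148), and the probe set of Cycs with the widest spread gave -0.10 without passing. The call of Cycs was also lost without the range 12 to 22 (adjusted p = 0.138) or 44 to 54 (adjusted p = 0.11). Neither fall in that list was held under all 3 scalings. Sdhd, a succinate dehydrogenase subunit, changed by -0.39 and lost its call when any 1 of 11 arrays was left out (adjusted p up to 0.0966). Ndufs8, of complex I, changed by -0.59 and lost its call without 1 array at 0 h (adjusted p = 0.0518).

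Genes of peroxisomes and fatty acid oxidation fell often and none rose. Of 37 measured, 22 fell (59.5%, against 15.8% of all genes), 12 of them under all 3 scalings, and the median change was -0.59. Leaving out single arrays gave 20 to 24 falls, and leaving out a code range gave 9 to 21. Abcd2, which imports very long-chain fatty acids into peroxisomes, had 1.09, 3.88 and 12.1 at 4 h and 264, 587 and 1131 at 0 h, the largest fall among those named (-4.70 ± 0.27, adjusted p = 2.49e-06). Crot, the peroxisomal carnitine octanoyltransferase, had 339.7, 422 and 529 at 4 h and 1678, 1787 and 1888 at 0 h (-2.04 ± 0.13, adjusted p = 3.99e-06). Cpt1a, the enzyme that commits long-chain fatty acids to mitochondrial oxidation, had 953, 1042 and 1526 at 4 h and 2448, 3048 and 3586 at 0 h (-1.46 ± 0.14, adjusted p = 6.26e-05). In these 3 genes all arrays at 4 h lay below all arrays at 0 h. Acox3, a peroxisomal acyl-CoA oxidase, fell by 1.51 ± 0.23 (adjusted p = 0.00102). Among the milder falls were Acadm (-0.96), the medium-chain acyl-CoA dehydrogenase, Hadh (-0.90) and Ehhadh (-1.04), which act in later steps of the spiral.

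Lipid synthesis, storage and sterol genes moved both ways. Of 30 genes of fatty acid synthesis and storage 4 rose (13.3%) and 6 fell (20%), against 7.34% and 15.8% of all genes. Under all 3 scalings 4 and 5 held, and the median was -0.29. Fabp4, a fatty acid carrier, had 836, 3872 and 8139 at 4 h and 299, 505 and 722 at 0 h (2.57 ± 0.33, adjusted p = 0.000415), with a change of 1.49 to 3.82 over the ranges. Hilpda, a lipid droplet protein, rose by 1.59 ± 0.36 (adjusted p = 0.0106), but by 0.34 in one range, and it missed the threshold without the range 32 to 37 (1.03, adjusted p = 0.0993) or 44 to 54 (1.52, adjusted p = 0.107). Scd2, a stearoyl-CoA desaturase, had 262, 511 and 744 at 4 h and 811, 1446 and 1605 at 0 h (-1.42 ± 0.20, adjusted p = 0.000646). Lpin1, a phosphatidate phosphatase, had 16.4, 102 and 137 at 4 h and 316, 355 and 487 at 0 h (-1.98 ± 0.34, adjusted p = 0.00233). Both desaturase and phosphatase were lower on every array at 4 h. Fads1 and Elovl6, a further desaturase and an elongase, fell by 1.17 and 1.01.

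In the list of sterol synthesis and efflux 4 of 26 genes rose (15.4%) and 6 fell (23.1%), against 7.34% and 15.8% of all genes. Of these, 3 and 1 held under all 3 scalings, and the median was -0.01. Ch25h, which makes an oxysterol from cholesterol, had 1332, 6748 and 19903 at 4 h and 107, 322 and 429 at 0 h, without overlap (4.42 ± 0.31, adjusted p = 8.76e-06). Cyp51, a demethylase of the sterol pathway, rose by 0.84 ± 0.22 (adjusted p = 0.0205), a call lost without the range 32 to 37 (0.64, adjusted p = 0.192) or 44 to 54 (0.99, adjusted p = 0.0885). Dhcr7, the last reductase of cholesterol synthesis, fell by 1.01 ± 0.13 (adjusted p = 0.000418). Abcg1, a cholesterol exporter, had overlapping groups and a fall of 0.89 ± 0.20 that was lost with median centring (-0.63, adjusted p = 0.0539), without the block (adjusted p = 0.0689) and without the range 12 to 22 (0.0515) or 44 to 54 (0.0836). Apart from Ch25h the pathway showed no change past 1.01 on the log2 scale in either direction.

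Genes of amino acid transport and use rose more often than they fell. Of 37 genes of arginine, amino acid and polyamine metabolism 13 rose (35.1%) and 2 fell, 12 and 1 under all 3 scalings, and the median was 0.26. Slc7a11, the cystine importer, had 864, 1920.4 and 2462 at 4 h and 54.2, 77.8 and 113 at 0 h (4.15 ± 0.18, adjusted p = 5.48e-07). Slc7a2, a transporter of arginine, had 1613, 2332 and 3749.7 at 4 h and 186, 355 and 471 at 0 h (2.74 ± 0.21, adjusted p = 1.44e-05). Gch1, the first enzyme of tetrahydrobiopterin synthesis, had 3429, 4579 and 6976 at 4 h and 206, 399 and 556 at 0 h (3.66 ± 0.26, adjusted p = 9.19e-06). These 3 genes were above their 0 h levels on all arrays at 4 h, and the same held for Arg2, the mitochondrial arginase (2.82 ± 0.26, adjusted p = 4.21e-05). Nos2, the inducible nitric oxide synthase, rose by 1.77, but missed the threshold when any 1 of 4 arrays or either of 2 code ranges was left out (adjusted p up to 0.129). Pts, a later enzyme of tetrahydrobiopterin synthesis, fell by 0.89. Of 33 genes of nucleotide and NAD metabolism 8 rose (24.2%) and 8 fell (24.2%), against 7.34% and 15.8% of all genes. Under all 3 scalings 8 and 3 held. The risers included Ampd3, an AMP deaminase (8047, 10543 and 14585 at 4 h against 1572, 1695 and 1855 at 0 h, 2.70 ± 0.16), Cmpk2, a mitochondrial nucleotide kinase (2.41 ± 0.34), Parp14, an ADP-ribosyltransferase (2.02 ± 0.21), and Nampt, the rate-limiting enzyme of NAD salvage (1.63 ± 0.15).

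Redox defence and the handling of metals had among the highest shares of rises. Of 27 redox and heavy metal genes 11 rose (40.7%) and 3 fell (11.1%), against 7.34% and 15.8% of all genes. Under all 3 scalings 10 and 0 held, and the median was 0.53. Sod2, the mitochondrial superoxide dismutase, had 25965, 28188 and 37766 at 4 h and 3925, 4387 and 5306 at 0 h (2.72 ± 0.14, adjusted p = 1.03e-06). Txnrd1, thioredoxin reductase, had 11902, 18045 and 22147 at 4 h and 2455, 3330.4 and 5029 at 0 h (2.32 ± 0.15, adjusted p = 5.29e-06). Both were separated between the times on every array. Hmox1, heme oxygenase, had 3769, 22901 and 29870.3 at 4 h and 2232, 2519 and 4097 at 0 h, with overlap (2.31 ± 0.34, adjusted p = 0.000957), and its change was 0.86 in one range and 3.29 in another. Srxn1, which repairs peroxiredoxins, rose by 2.27 ± 0.27 (adjusted p = 0.000259).

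Of 23 genes of iron, zinc and copper handling 11 rose (47.8%), all 11 under the 3 scalings, and 1 fell, under the deposited scaling alone. The median was 0.60. Slc39a14, an importer of zinc and of iron not bound to transferrin, had 2967, 4552 and 7009 at 4 h and 343, 430.1 and 763 at 0 h (3.24 ± 0.18, adjusted p = 1.86e-06). Slc11a2, the divalent metal transporter, had 1262, 2266 and 3472 at 4 h and 255, 305 and 461 at 0 h (2.64 ± 0.19, adjusted p = 9.32e-06). Steap4, a metalloreductase, had 57, 266 and 710.3 at 4 h and 3.1, 4.16 and 22.3 at 0 h (3.62 ± 0.41, adjusted p = 0.000188). None of these 3 overlapped between the times. Cp, the copper oxidase ceruloplasmin, rose by 2.90 ± 0.48 (adjusted p = 0.00184) with overlapping groups. Slc31a2 and Slc31a1, both of the copper transporter family, rose by 2.34 and 1.26.

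In eicosanoid synthesis the transcripts of 3 enzymes on the way to prostaglandin E2 rose, and that of a prostaglandin-inactivating enzyme fell. Neither enzyme activity nor prostaglandins were measured. The list as a whole held 3 rises (15.8%) and 6 falls (31.6%) among 19 genes, against 7.34% and 15.8% of all genes. Under all 3 scalings 3 and 4 held, and the median was -0.48. Pla2g4a, the phospholipase that releases arachidonic acid, had 3263, 4476 and 7206 at 4 h and 621, 1009 and 1605 at 0 h (2.17 ± 0.26, adjusted p = 0.00027). Ptges, the terminal prostaglandin E synthase, had 594, 985 and 1151 at 4 h and 27.2, 72.1 and 128 at 0 h (3.5 ± 0.31, adjusted p = 3.75e-05), and Ptgs2 between them is given above. Hpgd, the dehydrogenase that inactivates prostaglandins, had 267, 439.8 and 1654 at 4 h and 1437, 6122 and 13873 at 0 h, a fall of 3.08 ± 0.31 (adjusted p = 8.12e-05). Its groups overlapped because its level differed between code ranges, and it fell by 2.02 to 4.03 within each of them. Tbxas1, thromboxane synthase, fell by 1.02 and Alox5ap, the lipoxygenase-activating protein, by 0.69. The plot of named metabolic genes shows these changes with their values in each range.

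**Figure D4:**
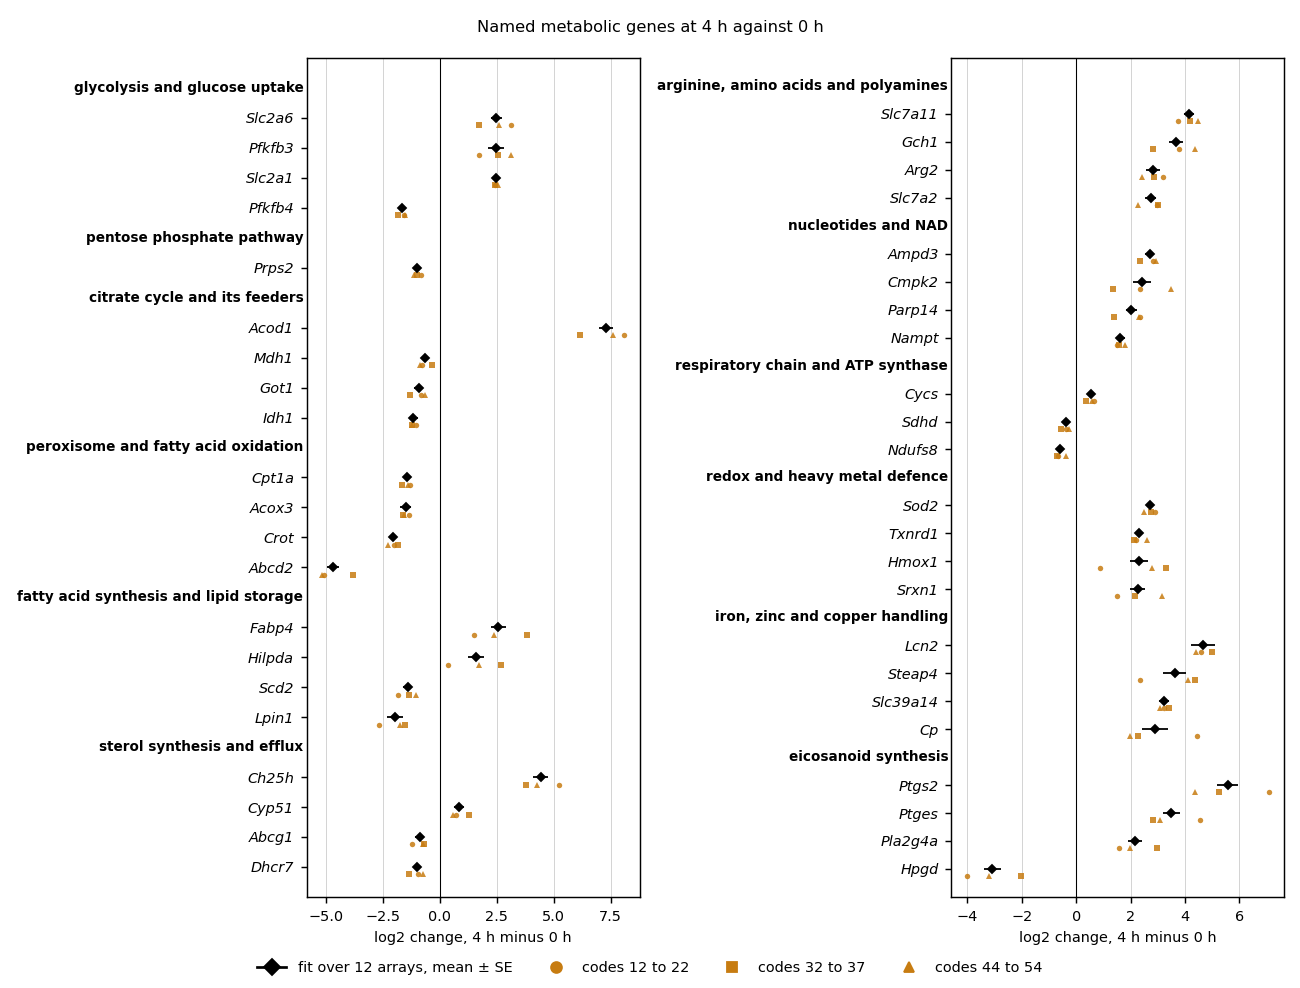
Log2 change, 4 h minus 0 h, of the named metabolic genes by list, with black diamonds for the fit over 12 arrays (bars are SE) and orange symbols for the change within each code range. Acod1 at 7.30 and Abcd2 at -4.70 are the extremes.

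Among membrane traffic genes single regulators changed by several fold while most members stayed below the threshold. Of 56 Rab and Arf GTPases and regulators 11 rose (19.6%) and 11 fell (19.6%), against 7.34% and 15.8% of all genes. Under all 3 scalings 10 and 4 held, and the median was -0.02. Rab20, a GTPase of phagosomes, had 1526, 1962 and 3116 at 4 h and 188, 242 and 380.1 at 0 h (2.92 ± 0.16, adjusted p = 1.96e-06). Rab11fip1, an effector of recycling endosomes, had 285, 486 and 695 at 4 h and 45.5, 92.3 and 140.5 at 0 h (2.31 ± 0.26, adjusted p = 0.00017). Its relative Rab11fip5 had 836, 1027 and 1813 at 4 h and 3464, 4702 and 5949.9 at 0 h (-2.02 ± 0.24, adjusted p = 0.000226). The 2 effectors of Rab11 thus moved in opposite directions, both without overlap. Rab3il1, an exchange factor, fell by 1.55 ± 0.40 (adjusted p = 0.0193), but by 0.25 in one range and 3.15 in another, and the call was lost without the range 12 to 22 (-0.75, adjusted p = 0.116) or 44 to 54 (-1.70, adjusted p = 0.111). Rab27a, which docks secretory granules, fell by 1.52, and Rab10 and Rab32 rose by 1.01 and 0.91.

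Of 35 SNAREs and fusion factors 3 rose (8.57%) and 8 fell (22.9%), against 7.34% and 15.8% of all genes. Under all 3 scalings 3 and 4 held, and the median was -0.06. Stx11, a syntaxin used in granule release by leukocytes, had 2994, 4067 and 5219 at 4 h and 285, 354 and 674 at 0 h (3.35 ± 0.16, adjusted p = 9.23e-07), and Stx6, of the trans-Golgi network, rose by 1.29 ± 0.14 (adjusted p = 0.000105). Stx17, which fuses autophagosomes with lysosomes, had 416, 459 and 479 at 4 h and 869, 953 and 1081 at 0 h (-1.06 ± 0.11, adjusted p = 9.6e-05). Vamp1 fell by 2.02 ± 0.27 to signals of 16 or less at 4 h. All 4 were separated between the times. Of 42 endosome sorting genes 7 rose (16.7%) and 6 fell (14.3%), with 6 and 3 under all 3 scalings and a median of -0.10. Ehd1, which drives recycling from endosomes, had 14221, 16898 and 21519 at 4 h and 1489, 3473 and 4416 at 0 h (2.58 ± 0.25, adjusted p = 7.57e-05). Eea1, the early endosome tether, rose by 1.47 ± 0.13 (adjusted p = 3.74e-05) and the sorting nexin Snx18 by 1.40 ± 0.12 (adjusted p = 2.51e-05). Snx30 fell by 1.33 ± 0.25 (adjusted p = 0.00392), a call lost without the range 44 to 54 (adjusted p = 0.0699).

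Of 42 lysosome and autophagy genes 2 rose (4.76%) and 7 fell (16.7%), shares near the 7.34% and 15.8% of all genes. Under all 3 scalings 2 and 3 held, and the median was -0.23. Mcoln2, an ion channel of endosomes and lysosomes, had 2062, 6966 and 9747 at 4 h and 679, 821 and 1111 at 0 h (2.73 ± 0.30, adjusted p = 0.00016). Sqstm1, the autophagy receptor p62, had 30768, 35306 and 38972 at 4 h and 11081, 12857 and 15597 at 0 h (1.45 ± 0.13, adjusted p = 3.98e-05). Both rises were seen on every array. The autophagy kinase Ulk2 fell by 1.34 ± 0.14 (adjusted p = 0.000101), its relative Ulk1 by 0.89, and Scarb2, a lysosomal membrane protein that carries an enzyme to lysosomes, by 1.25 ± 0.15 (adjusted p = 0.000263). Among 36 genes of endoplasmic reticulum export and stress 6 rose (16.7%) and 2 fell (5.56%), against 7.34% and 15.8% of all genes. Under all 3 scalings 4 and 1 held, and the median was -0.03. Herpud1, which acts in the disposal of misfolded proteins, had 2482, 3763 and 7666 at 4 h and 507, 592 and 678 at 0 h (2.78 ± 0.25, adjusted p = 3.88e-05). Ppp1r15a, a phosphatase subunit that restores translation, rose by 1.66 ± 0.19 (adjusted p = 0.000198) and the stress factor Atf4 by 0.95 ± 0.15 (adjusted p = 0.00148). The stress sensor kinase Eif2ak3 fell by 1.12 ± 0.14 (adjusted p = 0.000326).

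G protein coupled receptors moved in both directions. Of 53 measured, 12 rose (22.6%) and 19 fell (35.8%), against 7.34% and 15.8% of all genes, dim ones included. Under all 3 scalings 12 and 14 held, and the median was -0.36. The 4 largest changes were rises, in Hcar2, Fpr2, Ccrl2 and Gpr84. Hcar2 had 1645, 3519 and 4734 at 4 h and 8.13, 54.7 and 158 at 0 h. Fpr2 had 2442, 7836 and 12771 at 4 h and 119.7, 189 and 271 at 0 h. Gpr84 had 8230.0, 18619.6 and 22146 at 4 h and 343, 523 and 1261 at 0 h (adjusted p = 3.99e-06). In each, the dimmest array at 4 h was above the brightest at 0 h. Further risers were Ednrb (3.30), an endothelin receptor, P2ry2 (2.75), a receptor for extracellular nucleotides, and Ptgir (1.79) and Ptger4 (0.95), receptors for prostacyclin and prostaglandin E2.

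The receptors that fell included several of the largest losses of the whole comparison. Cnr2, the cannabinoid receptor of immune cells, had 5.28, 15.1 and 46.7 at 4 h and 522, 608 and 896 at 0 h (-4.31 ± 0.26, adjusted p = 3.39e-06). Cxcr4, the receptor for CXCL12, had 77, 646 and 919 at 4 h and 4373, 6044 and 7894 at 0 h (-3.78 ± 0.37, adjusted p = 7.62e-05). Lpar6, a receptor for lysophosphatidic acid, had 395, 529 and 824 at 4 h and 5530.4, 7078 and 8632 at 0 h (-3.62 ± 0.14, adjusted p = 2.61e-07). All 3 were lower on every array at 4 h, and Lpar6 had changes of -3.90 to -3.40 over the 3 ranges. Gpr183, a receptor for oxysterols, had 136, 174 and 259.9 at 4 h and 1165, 2386 and 2527 at 0 h (-3.32 ± 0.17, adjusted p = 1.03e-06). The chemokine receptors Ccr2 and Cx3cr1 fell by 2.75 and 2.0, the lysophospholipid receptors Gpr34 and S1pr1 by 2.42 and 1.64, the nucleotide receptor P2ry1 by 2.10, and the proton sensor Gpr65 by 2.05.

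The machinery under these receptors fell more often than it rose. Of 42 RGS proteins, arrestins, G proteins and cyclic AMP enzymes 4 rose and 20 fell (47.6%), 3 and 13 under all 3 scalings, with a median of -0.40. Rgs2, which speeds the shut-off of G proteins, had 371, 602 and 1153 at 4 h and 10154, 12027 and 13878 at 0 h (-4.21 ± 0.27, adjusted p = 4.78e-06). Arrdc3, an alpha-arrestin that directs receptors to degradation, had 196, 260.0 and 292 at 4 h and 2439.8, 3289 and 6770.1 at 0 h (-3.74 ± 0.22, adjusted p = 2.58e-06). Txnip, an alpha-arrestin that lowers glucose uptake, had 1629, 2357 and 3137 at 4 h and 10821, 14176 and 18064 at 0 h (-2.55 ± 0.15, adjusted p = 3.66e-06). None of the 3 overlapped between the times. Pde4b, a phosphodiesterase that breaks down cyclic AMP, had 2453, 5154 and 8600.1 at 4 h and 196, 429 and 1495 at 0 h (3.25 ± 0.45, adjusted p = 0.000652). The phosphodiesterases Pde3b and Pde7a fell by 2.08 and 1.35, and the adenylyl cyclases Adcy9 and Adcy7 by 1.83 and 1.37.

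Of 49 receptors for cytokines and growth factors 11 rose (22.4%) and 9 fell (18.4%), against 7.34% and 15.8% of all genes. Under all 3 scalings 11 and 7 held, and the median was -0.16. Cd40, a costimulatory receptor, had 2359.6, 7355 and 17099.7 at 4 h and 203, 347 and 456 at 0 h (4.32 ± 0.28, adjusted p = 4.87e-06). Fas, a death receptor, had 3082, 3206 and 3743 at 4 h and 117, 312 and 547 at 0 h (3.6 ± 0.28, adjusted p = 1.5e-05). Tnfrsf1b, a TNF receptor, had 17096, 17931 and 20019 at 4 h and 1950.3, 2445 and 3655 at 0 h (2.82 ± 0.15, adjusted p = 1.87e-06). The 3 receptors of the TNF family rose without overlap, and Met, the receptor for hepatocyte growth factor, rose by 2.76 ± 0.32 (adjusted p = 0.000204). In the opposite direction Mertk, of which the arrays held 82.9, 240.1 and 470.1 at 4 h and 1038, 1669 and 2051 at 0 h, was joined by Tnfrsf21 (-1.91), a death receptor, Il6ra (-1.90), the IL-6 receptor, and Nrp1 (-1.05), a semaphorin coreceptor. Of 28 genes of the TGF-beta and SMAD pathway 3 rose (10.7%) and 6 fell (21.4%), against 7.34% and 15.8% of all genes. Under all 3 scalings 3 and 5 held, and the median was -0.25. Tgfbr1, the type I receptor, fell by 1.05 ± 0.13 (adjusted p = 0.000261), Ski, a corepressor of SMADs, by 1.69 ± 0.15 (adjusted p = 3.38e-05) and the inhibitor Smad6 by 1.06 ± 0.13 (adjusted p = 0.000284). Bambi, a decoy receptor, fell by 1.11 ± 0.25, a call lost without the range 12 to 22 (-0.66, adjusted p = 0.0757).

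Uptake receptors rose more often than they fell, with 17 rises (35.4%) and 9 falls (18.8%) among 48. The shares of all genes were 7.34% and 15.8%. Under all 3 scalings 17 and 6 held, and the median was 0.13. Marco, a scavenger receptor for bacteria, had 588, 904 and 1723 at 4 h and 5.87, 9.08 and 211 at 0 h (4.21 ± 0.55, adjusted p = 0.000431), with a change of 1.83 in one range and 5.67 in another. Olr1, a lectin-like receptor for oxidized lipoprotein, had 925, 1532 and 2176 at 4 h and 50.5, 82.4 and 125 at 0 h (3.94 ± 0.25, adjusted p = 5.06e-06). Clec4e, the lectin Mincle, had 36222, 40086 and 45426 at 4 h and 1275, 2739 and 12425 at 0 h (3.39 ± 0.40, adjusted p = 0.000214). None of the 3 overlapped, and in Marco and Clec4e the highest array was a larger multiple of the lowest at 0 h than at 4 h. Fcgr2b, the inhibitory Fc receptor, had 12365, 19649 and 31876 at 4 h and 1352, 2218 and 3146 at 0 h (3.24 ± 0.26, adjusted p = 2.09e-05). Falls were found in Cd300lf (-1.72) and Cd300a (-1.13), receptors for membrane lipids, and in Trem2 (-1.02), a lipid-sensing receptor of macrophages.

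Transcription factors of the bZIP class rose more often than they fell. Of 28 AP-1, ATF and MAF genes 13 rose (46.4%), all 13 under the 3 scalings, and 5 fell, 1 of them under all 3, with a median of 0.63. Maff, a small MAF protein, had 361, 728 and 1160.2 at 4 h and 10, 70.0 and 143 at 0 h (3.25 ± 0.32, adjusted p = 7.48e-05). Jdp2, a partner of Jun, had 2704, 4110.5 and 6680.0 at 4 h and 288, 547 and 1041 at 0 h (2.90 ± 0.30, adjusted p = 9.2e-05). Batf had 771, 1455 and 2099 at 4 h and 183, 235 and 352 at 0 h (2.39 ± 0.17, adjusted p = 1.03e-05). All were above their 0 h levels on every array, as was Junb (2.11 ± 0.25, adjusted p = 0.000243). Fos, the immediate early partner of the Jun proteins, was lower at 4 h than at 0 h, by 1.31. Of 14 IRF and STAT genes 3 rose (21.4%) and 1 fell (7.14%), against 7.34% and 15.8% of all genes. The numbers were the same under all 3 scalings, and the median was 0.09. Irf1 had 3786, 5130.4 and 11760.3 at 4 h and 834, 1068 and 1208 at 0 h (2.44 ± 0.18, adjusted p = 1.27e-05), and Stat5a rose by 1.66 ± 0.21 (adjusted p = 0.000347). Irf2, an antagonist of Irf1, fell by 0.77 ± 0.13 (adjusted p = 0.00246; 0.0504 without the range 12 to 22). Irf7 rose by 0.73 ± 0.18, which missed the threshold without the block (adjusted p = 0.203) and without the range 12 to 22 (0.151) or 44 to 54 (0.157).

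Lineage factors split between rises and falls. Of 36 ETS, C/EBP and other lineage genes 11 rose (30.6%) and 10 fell (27.8%), against 7.34% and 15.8% of all genes. Under all 3 scalings 11 and 9 held, and the median was -0.12. Ets2 had 10747, 12849.5 and 18243 at 4 h and 367, 713 and 999 at 0 h (4.31 ± 0.25, adjusted p = 2.97e-06). Tfec, of the MITF family, had 3613, 4861 and 9717 at 4 h and 191, 469 and 821 at 0 h (3.57 ± 0.28, adjusted p = 1.78e-05). Lyl1, a hematopoietic bHLH factor, had 176, 234 and 350.2 at 4 h and 1272, 1586 and 2343 at 0 h (-2.71 ± 0.17, adjusted p = 3.78e-06). These 3 were separated between the times. Gfi1, a repressor, rose by 2.59 ± 0.64 (adjusted p = 0.0159), but by 0.50 in one range and 5.24 in another, and its call was lost without the range 12 to 22 (1.27, adjusted p = 0.0827) or 44 to 54 (2.87, adjusted p = 0.0924). Within the C/EBP family Cebpd rose by 2.44 and Cebpb by 1.89 while Cebpa fell by 1.56. The hematopoietic factors Tal1, Lmo2 and Fli1 fell by 1.24, 1.31 and 1.63, and Mef2c by 2.21. Spi1, the macrophage factor PU.1, rose by 1.02 ± 0.14 (adjusted p = 0.00047).

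Of 23 nuclear receptors 3 rose (13%) and 7 fell (30.4%), against 7.34% and 15.8% of all genes. In each direction 2 held under all 3 scalings, and the median was -0.53. Nr4a3, an orphan receptor of the early response, had 146, 796 and 1422 at 4 h and 7.5, 21.2 and 52.1 at 0 h (4.14 ± 0.39, adjusted p = 5.88e-05). Rxra, the shared partner of many nuclear receptors, had 83.1, 227 and 311 at 4 h and 344, 371 and 703 at 0 h (-1.14 ± 0.22, adjusted p = 0.00467; -0.76 and 0.0656 without the range 12 to 22). Nr2c2 had 814, 1046 and 1194 at 4 h and 1822, 2314 and 2660.1 at 0 h (-1.14 ± 0.16, adjusted p = 0.000599). None of the 3 overlapped between the times. Nr4a2, a relative of Nr4a3, changed by -1.08, but the call was lost when any 1 of 8 arrays was left out and under both other scalings.

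Of 53 KLF, BTB, bHLH and forkhead factors 13 rose (24.5%) and 20 fell (37.7%), against 7.34% and 15.8% of all genes. Under all 3 scalings 13 and 15 held, and the median was -0.25. Mycl, of the MYC family, had 50.3, 267 and 775 at 4 h and 4.98, 7.6 and 14.1 at 0 h (3.37 ± 0.39, adjusted p = 0.000194). Mxd4, a MAX partner that opposes MYC, had 145, 187 and 268 at 4 h and 986, 1558 and 1838 at 0 h (-2.79 ± 0.20, adjusted p = 1.12e-05). Hhex, a homeobox factor of blood cells, had 174, 278 and 307 at 4 h and 978, 1457 and 2049 at 0 h (-2.40 ± 0.20, adjusted p = 2.16e-05). All 3 were separated between the times. Klf7 rose by 2.88 ± 0.27 (adjusted p = 4.86e-05) and Hif1a, the oxygen-regulated factor, by 1.15, while Klf2 and Klf4, which restrain inflammatory genes in macrophages and endothelium, fell by 1.56 and 1.58 and the forkhead factors Foxo3 and Foxo4 by 1.43 and 1.5. Among 32 histone demethylases and acetylation genes 4 rose (12.5%) and 10 fell (31.2%), with 3 in each direction under all 3 scalings (median -0.31). Kdm6b, which removes a repressive histone mark, had 1197, 2253 and 3419 at 4 h and 159, 198 and 349 at 0 h (3.23 ± 0.28, adjusted p = 3.38e-05). Kdm2b had 391, 569.9 and 818 at 4 h and 1694, 2117 and 2623 at 0 h (-1.88 ± 0.15, adjusted p = 1.86e-05), and the deacetylase Hdac5 fell by 1.54 ± 0.19 (adjusted p = 0.000317). Kdm4a rose by 1.31 ± 0.29 (adjusted p = 0.00869), but the probe set of Kdm4a with the widest spread gave -0.25 without passing, and the call was lost without the range 12 to 22 (0.75, adjusted p = 0.065) or 44 to 54 (1.47, adjusted p = 0.0571). The plot of named trafficking, receptor and transcription factor genes gives their changes by range.

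**Figure D5:**
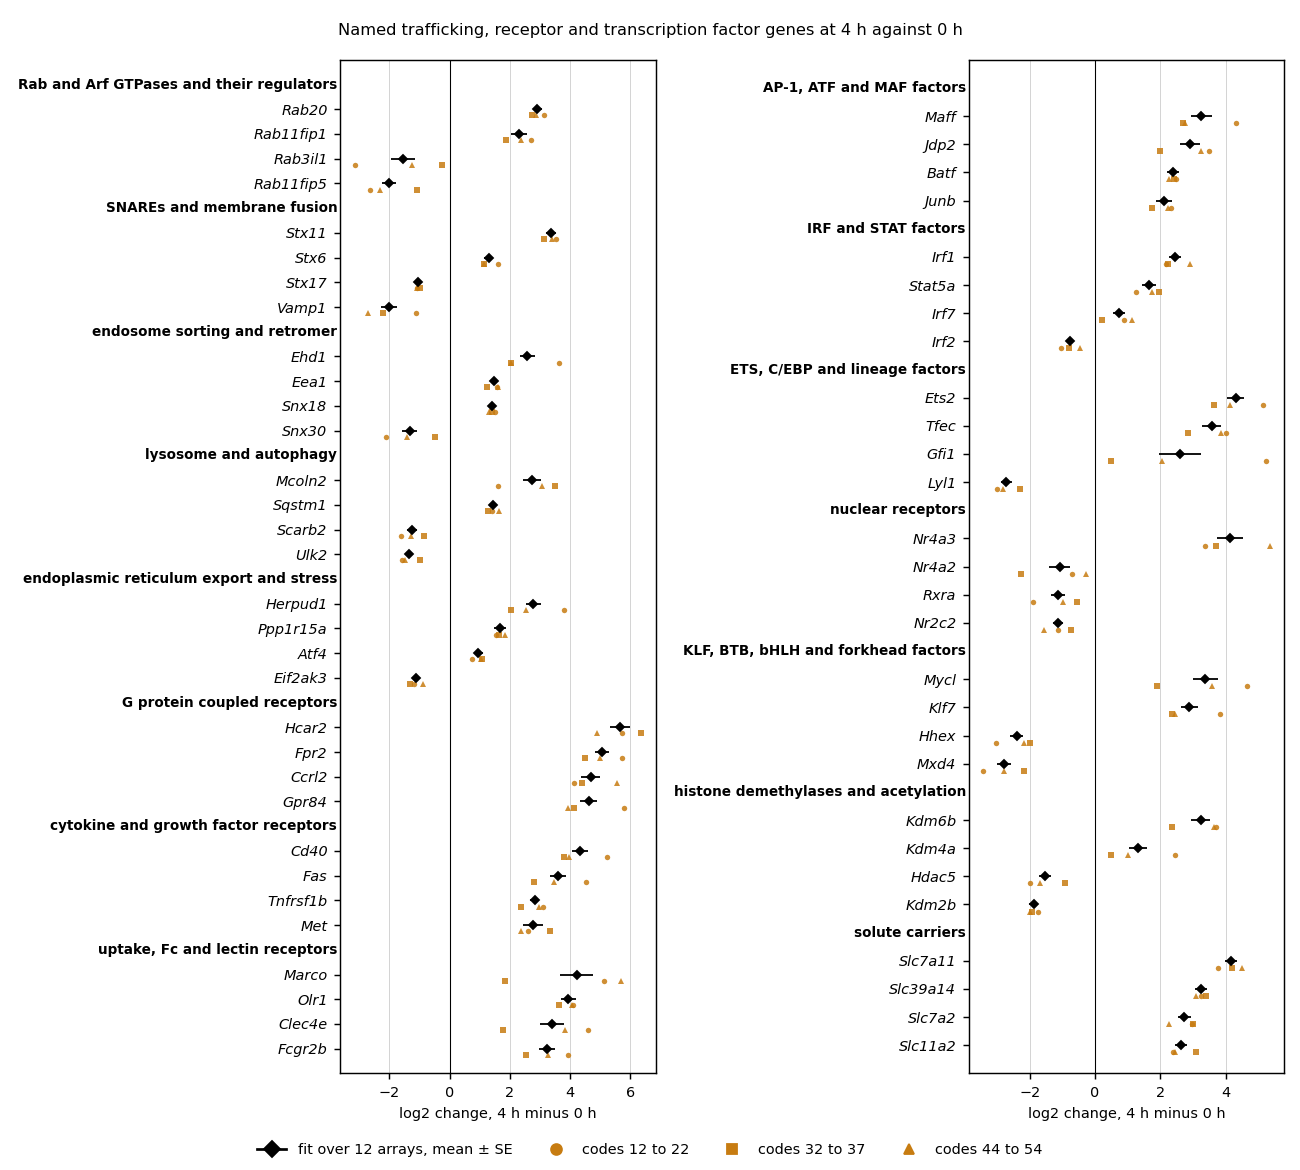
Log2 change, 4 h minus 0 h, of the named trafficking, receptor, transcription factor and solute carrier genes, with black diamonds for the fit over 12 arrays (bars are SE) and orange symbols for each code range. Gfi1 (0.50 to 5.24) and Marco (1.83 to 5.67) vary most between ranges among the genes shown.

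Further losses among the 15 largest falls lay outside the receptors. Gcnt1, which builds branched O-glycans, had 154, 301 and 534 at 4 h and 2319, 3760.4 and 4390.2 at 0 h (-3.5 ± 0.23, adjusted p = 5.29e-06). Cytip, which regulates integrin adhesion, had 258, 449 and 2429 at 4 h and 2494, 5328 and 23345 at 0 h (-3.36 ± 0.18, adjusted p = 1.86e-06). Klhl6, a ubiquitin ligase adaptor of lymphoid cells, had 48.3, 176 and 222 at 4 h and 991, 1675 and 2253 at 0 h (-3.23 ± 0.33, adjusted p = 9.07e-05). The groups did not overlap, and Cytip was brightest in the range 32 to 37 at both times. Tmem273 and Kctd12b each fell by 2.95, with standard errors of 0.26 and 0.15. All 15 of the largest falls, picked for large changes in these same arrays, kept their call in each alternative fit other than those of a single code range.

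Genes of DNA repair and p53 targets fell broadly, with 23 falls (52.3%) and 3 rises among 44 (19 and 3 under all 3 scalings; median -0.67). Single arrays left out gave 19 to 23 falls. Sesn1, a p53 target that restrains mTORC1, had 205, 396 and 985 at 4 h and 1564, 6242 and 7203 at 0 h (-3.43 ± 0.29, adjusted p = 2.76e-05). Chek2, a checkpoint kinase, had 118, 147 and 359 at 4 h and 409.8, 606 and 669.8 at 0 h (-1.62 ± 0.19, adjusted p = 0.000249). Both were lower on every array at 4 h. Mismatch repair (Msh3 -1.53, Msh6 -1.16, Pms2 -1.09), nucleotide excision repair (Xpc -1.33, Ercc5 -1.05, Xpa -0.88) and break repair (Brca1 -1.44, Atm -1.38, Brca2 -0.89) were each represented among the falls. The 3 rises were Gadd45b (4268, 6592 and 8454 at 4 h against 720.0, 862 and 1035 at 0 h, 2.83 ± 0.18) and Gadd45a (2.20 ± 0.14), both growth arrest genes, and Mdm2 (1.24), the ligase that degrades p53.

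Of 49 genes of the cell cycle and DNA replication 2 rose (4.08%) and 20 fell (40.8%), against 7.34% and 15.8% of all genes. Under all 3 scalings 2 and 9 held, and the median was -0.56. The count of falls was 14 to 26 with single arrays left out and 5 to 14 with a code range left out. E2f2, a factor of the G1 to S transition, had 12.6, 73.6 and 178 at 4 h and 235, 462 and 973 at 0 h (-2.50 ± 0.20, adjusted p = 2.22e-05). Cdc6, which loads the replicative helicase, fell by 1.46 ± 0.24 (adjusted p = 0.00178) with overlapping groups. Cdt1, which acts beside Cdc6, fell by 1.33 ± 0.33 (adjusted p = 0.0156), a call lost without the range 12 to 22 (-0.73, adjusted p = 0.0843) or 44 to 54 (-1.54, adjusted p = 0.0735). The Cdk inhibitors moved apart. Cdkn1a had 8469.9, 14532 and 25262 at 4 h and 3974, 6272 and 7931 at 0 h (1.31 ± 0.22, adjusted p = 0.00187; 0.0508 without the range 44 to 54), while Cdkn1b and Cdkn2c fell by 1.09 and 1.14.

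Inositol lipid enzymes moved both ways. Of 34 PI3K and inositol lipid genes 6 rose (17.6%) and 11 fell (32.4%), against 7.34% and 15.8% of all genes. Under all 3 scalings 6 and 6 held, and the median was -0.24. Pik3r5, the adaptor of the PI3K gamma isoform, had 11316, 12985 and 16675 at 4 h and 2139.8, 2940.2 and 3898 at 0 h (2.19 ± 0.16, adjusted p = 1.27e-05), and Pik3ap1, an adaptor between Toll-like receptors and PI3K, rose by 1.24 ± 0.15 (adjusted p = 0.000238). Inpp5d, the phosphatase SHIP1 that opposes PI3K, had 728, 1025 and 1559 at 4 h and 3471, 3934 and 4059.8 at 0 h (-1.84 ± 0.16, adjusted p = 3.88e-05). Pik3r5 and Inpp5d did not overlap between the times. Dgkz, a diacylglycerol kinase, fell by 1.18 ± 0.23 (adjusted p = 0.00489; 0.0714 without the range 12 to 22 and 0.0837 without 44 to 54).

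In the BCL2 and apoptosis list 11 of 27 genes rose (40.7%) and 7 fell (25.9%), against 7.34% and 15.8% of all genes. Under all 3 scalings 11 and 4 held, and the median was 0.09. Cflar, the inhibitor FLIP of caspase-8, had 5735, 6857 and 9774 at 4 h and 590.4, 753 and 1155 at 0 h (3.11 ± 0.18, adjusted p = 2.45e-06). Casp4, the mouse caspase-11 that senses cytosolic lipopolysaccharide, had 4718, 6360.1 and 8791 at 4 h and 567, 882 and 1351 at 0 h (2.83 ± 0.22, adjusted p = 1.77e-05). Bmf, a death-promoting BH3-only protein, had 46.5, 118 and 175 at 4 h and 779, 1088 and 1864 at 0 h (-3.32 ± 0.21, adjusted p = 4.78e-06). None of the 3 overlapped. Birc3, an inhibitor of apoptosis, rose by 1.96 ± 0.25 (adjusted p = 0.00035), Bcl2l1, which encodes BCL-XL, by 1.41, and Casp2 and Casp9, initiator caspases, fell by 1.87 and 1.33.

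Large gene families differed in how their members moved. Of 336 genes named Zfp, most of them zinc finger proteins that bind DNA, 15 rose (4.46%) and 117 fell (34.8%). The shares of all genes were 7.34% and 15.8%. Under all 3 scalings 15 and 66 held. The median was -0.41, and 271 of the 336 had a negative change. With a median of -0.15, most of all 18193 genes had a negative change too. Single arrays left out gave 93 to 118 falls, and a code range left out 53 to 88. Zfp36l2, an RNA-binding protein that promotes message decay, had 563, 1523 and 2538 at 4 h and 8983, 9890.1 and 11379 at 0 h (-2.86 ± 0.30, adjusted p = 0.000101). Zfp688 and Zfp395 fell by 2.63 ± 0.37 and 2.49 ± 0.27, and Zfp811 had 82.5, 460.4 and 1348 at 4 h and 6.78, 19.4 and 51.3 at 0 h (3.44 ± 0.50, adjusted p = 0.000802). These 4 did not overlap between the times. Of 347 solute carriers 31 rose (8.93%) and 54 fell (15.6%), shares near those of all genes, with 30 and 22 under all 3 scalings. Of 58 tripartite motif proteins 6 rose (10.3%) and 16 fell (27.6%), with 5 and 8 under all 3 scalings. Trim13, a ligase of the endoplasmic reticulum, had 1445, 2134 and 2951 at 4 h and 286, 349 and 421 at 0 h (2.55 ± 0.17, adjusted p = 5.06e-06), and Trim65 fell by 2.25 ± 0.19 (adjusted p = 2.93e-05). Of 51 ubiquitin specific peptidases 6 rose (11.8%) and 9 fell (17.6%), against 7.34% and 15.8% of all genes. Under all 3 scalings 0 of the falls held. Usp18, which trims ISG15, rose by 2.01 ± 0.37 (adjusted p = 0.00325; 0.0537 without the range 44 to 54).

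For scale, 32 of 39 cytokines and chemokines rose and 0 fell (median 3.11), and 22 of 30 interferon response genes rose and 0 fell (median 1.33). The interferon count was 8 to 23 with a code range left out. Rsad2, the antiviral protein viperin, had 11269.6, 16892 and 27217 at 4 h and 1379, 2490.2 and 4339 at 0 h (2.92 ± 0.29, adjusted p = 7.57e-05). Of 33 cytosolic ribosomal protein genes 1 passed, Rpl12, which rose by 0.55 and lost its call when any 1 of 3 arrays was left out. Of 32 proteasome subunits 6 rose (18.8%) and 0 fell, against 7.34% and 15.8% of all genes. The rises numbered 4 under all 3 scalings and 18 under median centring, and the median was 0.21. Psmd11 (0.66 ± 0.13) and Psma6 (0.65 ± 0.11) led them. Each of these 2 calls was lost without the range 44 to 54, with adjusted p of 0.0881 for Psmd11 and 0.0591 for Psma6, and another, dim probe set of Psmd11 fell by 0.57 (adjusted p = 0.0404).

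Whether the change itself differed between the code ranges was tested with the interaction of time and range, which 8 probe sets (0.0178%) passed. Changes are listed for the codes 12 to 22 first, 32 to 37 next and 44 to 54 last. For 6 genes the brightest probe set was among them. Lad1, an anchoring filament protein, rose by 4.80, 1.56 and 1.39 (adjusted p of the difference 0.025). Tent5c, which lengthens poly(A) tails, changed by -0.03, 4.05 and 2.26 (0.0302), and Irf2bpl by -2.70, 1.44 and -1.24 (0.0237). Fnip2, a folliculin partner, changed by -1.11, 2.75 and 1.22 (0.0276), Lhfpl2 by -2.36, 1.49 and 0.00374 (0.0237), and Lef1, a TCF family factor, by 1.56, -1.84 and -0.72 (0.0322). The range 12 to 22 stood at one end of all 6, and the range 32 to 37 at the other end in all but Lad1. None of the 30 genes with the largest named rises and falls passed this test. They had been chosen for a change of the same sign in all 3 ranges, so this does not check their agreement between ranges.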

How the data were processed

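Affymetrix arrays were compared for 6 samples at 4 h and 6 at 0 h, grouped by the time in their source labels. The deposited intensity values are MAS5 signals made by the authors in GCOS, per the submitters' processing notes, and each array's trimmed mean was 500.0. Their settings were not given in the sources used here. No depth applies to arrays.

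From these values log2(signal + 16) was fitted with lmFit and eBayes (R 4.3.3, limma 3.58.1) with code range as a block, over 45037 probe sets (64 control probe sets of 45101 left out), with Benjamini-Hochberg adjustment and a threshold of 0.05. In simulated data with known changes the fit recovered 0 of 50 changes of 1.5-fold and 16 of 50 of 2-fold. It recovered 45 of 50 of 4-fold and 50 of 50 of 8-fold, with 9 false calls. Small changes can therefore be missed. Symbols came from the platform annotation, updated through RefSeq tables (GRCm38.p6). A single symbol was given for 34945 probe sets (34741 matched), several for 932 and none for 9160. The probe set with the highest mean log2 signal stood for a gene, and Psmd11 is one gene for which another probe set moved the opposite way.

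Named genes were the 15 largest rises outside cytokines, the 15 largest falls, and up to 4 called members of each list with the largest change. The largest rises and falls were taken only from called genes whose change had the same sign in every code range. The members and lists were chosen with earlier results of these data known. Alternatives were no block, all 18 arrays, a filter on dim probe sets (above the array median on at least 4 arrays), pseudocounts of 1 and 64, median centring, quantile normalization, other variance priors, each array or range left out, single ranges, a 2-fold minimum and the probe set with the widest spread. Replicates were numbered in accession order and pair nothing; a fit with neighbouring array codes as pairs was added after seeing the data. One gene list is not reported here.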

Additional observations from a re-analysis of the deposited data

Results flagged for a closer look

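In 13 of 376 groups of 6 arrays, each a named gene at one time, 1 array stood far from the other 5 (a gap over 0.625 of the group's range). Chance flags about 1 in 20 such groups.

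At 4 h, Acod1 reached 35940.9 on array code 16, against 22781 to 26966 on the others, and Sod2 37765.7 on the same array, against 25965 to 29074. That array was also the lowest for Klhl6, at 48.3215 against 136 to 222, and for Usp2, at 68.3289 against 171 to 283. Array code 22 was the lowest at 4 h for Lpin1, at 16.3856 against 82.6 to 137, and for Cyp51, at 481.63 against 1025 to 1319. Cd163 was highest on code 34, at 88.4497 against 40.4 to 50.7.

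At 0 h, Saa3 was highest on code 32, at 585.641 against 225 to 295, and Scarb2 lowest there, at 5516.64 against 6808 to 7647. Scd2 was lowest on code 12, at 810.711 against 1252 to 1605, and Chek2 on code 47, at 409.833 against 560.1 to 669.8. Kmo was lowest on code 35, at 68.5514 against 117 to 142, and Steap4 highest on code 44, at 22.3431 against 3.1 to 6.33.

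Kmo lost its call when any 1 of 6 arrays was left out. Usp2 lost its call under another scaling.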

How the results depend on the processing

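The total, rises and falls stayed within 1.5 times of 9037, 2641 and 6396 when single arrays were left out (7106 to 8918, 2149 to 2603 and 4957 to 6315). Median centring gave 4585 rises and 2922 falls, and quantile normalization 4064 falls. A 2-fold minimum left 3664 probe sets (1298 rises, 2366 falls). Without the codes 12 to 22, 4549 passed (1536 rises, 3013 falls), and without 44 to 54, 3830 (1356 rises, 2474 falls), with fewer samples in each fit. Within each single range limma called 0 rises and 0 falls, where unadjusted p-values under 0.05 numbered 8986 (codes 12 to 22), 7194 (32 to 37) and 8765 (44 to 54). The test of differences between ranges called 145 probe sets after the filter on dim ones, 147 with a pseudocount of 64 and 0 with a pseudocount of 1, against 8; the cause was not tested. With the probe set of widest spread, Cycs gave -0.10 and Kdm4a -0.25, the reverse of their reported direction. Of 184 called named genes, 145 kept their call in all 27 alternatives outside single ranges, and 174 under the 3 scalings. Of 100 list counts, 56 stayed within 1.5 times under median centring, 83 under quantile normalization and 84 without the block. The labels give no replicate numbers and state no pairs. Neighbouring array codes taken as 6 pairs in place of the range block, a fit chosen after seeing the data, gave 8050 calls (2312 rises, 5738 falls). Of the called named genes, Sdhd, Rab3il1, Nr4a2, Psmd3 and S100a9 lost their call in it. Signals near or under the pseudocount of 16 carry understated changes, and no detection call was used.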
